A study of Mus musculus with 8 samples.

Results

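DNA repair genes were compared between livers in which Albumin-Cre had deleted Hmgb1 and floxed control livers. The set comprised 48 genes of direct reversal, base excision, nucleotide excision, mismatch and break repair, chosen by name. Earlier results of these data were known at that choice. Of these, 47 had a probe set assigned to that gene alone, among 19938 genes tested in all, and the brightest such probe set represented each gene. The other member, Tdg, a thymine DNA glycosylase, lay only on probe sets that several genes share and was not analysed here.

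The 8 arrays came from livers of 8-week-old male littermates. In 4 of them Albumin-Cre had deleted Hmgb1. This recombinase is driven by a promoter active in hepatocytes, so the deletion was directed at these cells. Recombination in the liver's other cell types was not measured here. The other 4 carried floxed Hmgb1 alleles, and their titles name no Cre, so effects of Cre and of the deletion cannot be told apart. The labels disagree on tissue and strain: the protocol gives whole liver on a C57Bl/6 background backcrossed 5 times, and the characteristics give liver stellate cells and Balb/c. Albumin, the main secreted product of hepatocytes, had log2 intensities of 13.26 to 14.03, and the 13 measured hepatocyte markers had gene means of 10.84 to 13.88. The 15 stellate cell markers had gene means of 5.83 to 11.48, among them Reln (9.05 to 9.29 over the 8 arrays) and Des (6.65 to 6.99). Whether every array stands for its own animal is not stated in the labels, and the p-values then measure only the spread among the 8 arrays, which may be technical.

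Cells mend DNA by several routes. Direct reversal removes a lesion from the base itself. Base excision repair cuts out a damaged base and refills the gap, nucleotide excision repair removes a stretch of strand around a bulky lesion, mismatch repair corrects errors of copying, and broken strands are rejoined by end joining or recombination. Hmgb1 encodes an abundant chromatin protein that binds bent DNA, and purified HMGB1 is known to bind damaged DNA and to interact with repair factors.

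Of the repair genes, Mgmt alone passed the test. Mgmt, which encodes the methyltransferase that takes alkyl groups off guanine and is used up in doing so, rose in the deleted livers. Its log2 intensity was 8.71, 8.94, 8.52 and 8.68 on deleted arrays 1 to 4, and 7.80, 7.85, 7.88 and 7.93 on control arrays 1 to 4. All 4 deleted arrays lay above all 4 controls, and the gap between the nearest arrays of the groups was 0.59. The means were 8.71 ± 0.17 (SD, n = 4) and 7.87 ± 0.054 (SD, n = 4). The difference was 0.85 on the log2 scale, or 1.80-fold, with an SE of 0.085, a 95% interval of 0.66 to 1.03 and a limma adjusted p of 0.00259. The exact 2-sided permutation p was 0.0286, the smallest that 4 against 4 arrays can give. Every gene whose groups do not overlap gets this value, 5.57% of all genes, so it adds nothing to that separation. Mgmt ranked 5 by fold change among the 59 genes called higher, and 6 by p among all 19938 genes. Its probe set was moderately bright, and 78.5% of genes had a dimmer one.

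**Figure D1:**
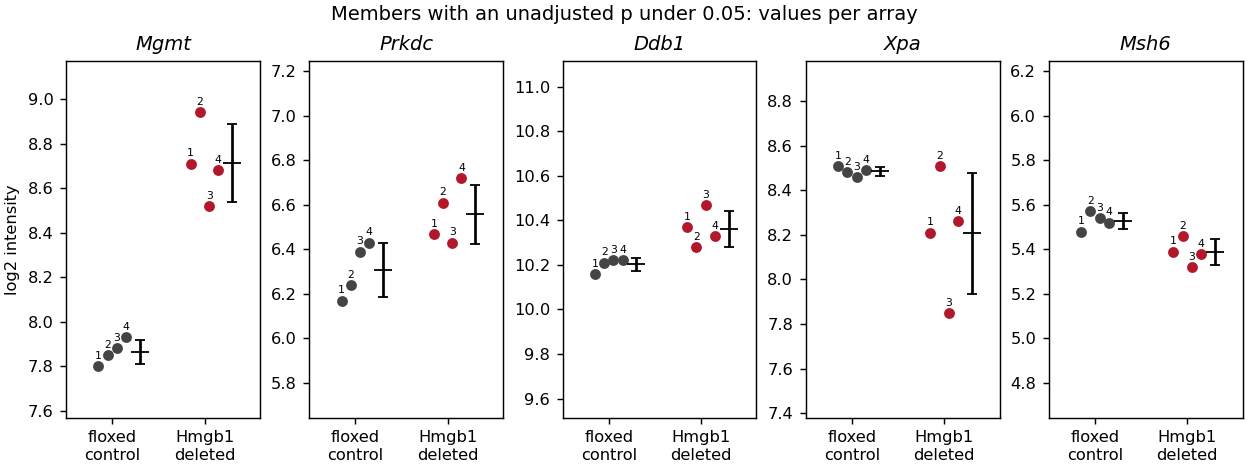
Log2 intensity (y axis, spanning the same number of units in each panel) of the 5 repair genes with an unadjusted p under 0.05, on floxed control (grey) and Hmgb1 deleted (red) arrays; small digits give the array number, and bars give the mean and SD of 4 arrays. The Mgmt values of the groups are 0.59 apart at their nearest, and the groups of Prkdc and Xpa overlap or touch.

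RefSeq places 2 start sites of Mgmt on chromosome 7 of the mouse reference genome (GRCm38.p6), and the array's probe set reads the gene as a whole, so it does not say which start was used. The 250 bases before each start are shown, since Mgmt is the gene that differed; they are reference sequence on the plus strand, not sequence of these mice. Capitals mark matches to the GC box, GGGCGG on either strand, a motif known to bind Sp1-type factors. The first window is chr7:136894336-136894585 and the second chr7:136912848-136913097.
Mgmt start 1: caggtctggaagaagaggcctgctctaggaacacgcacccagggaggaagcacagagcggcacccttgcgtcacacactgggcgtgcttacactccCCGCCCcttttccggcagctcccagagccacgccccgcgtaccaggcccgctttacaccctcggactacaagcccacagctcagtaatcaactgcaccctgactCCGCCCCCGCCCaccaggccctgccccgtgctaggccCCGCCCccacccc
Mgmt start 2: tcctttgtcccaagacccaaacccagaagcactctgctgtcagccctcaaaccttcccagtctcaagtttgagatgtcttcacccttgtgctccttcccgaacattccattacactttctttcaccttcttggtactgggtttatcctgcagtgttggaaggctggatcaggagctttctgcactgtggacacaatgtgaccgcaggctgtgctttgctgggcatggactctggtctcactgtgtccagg

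The window before the first start held 4 GC boxes, 2 of them side by side, and 15 CpG dinucleotides, more than 72.7% of the 32851 promoter windows of the same length. The window before the second start held 0 GC boxes and 2 CpG dinucleotides. Neither held a CCAAT box (CCAAT, either strand) or an E-box (CACGTG). Promoter windows were found for 39 of the 47 repair genes, 47 windows in all. A GC box was in 53.2% of them against 32.7% of all windows, a CCAAT box in 42.6% against 33.8%, and an E-box in 14.9% against 6.02%. The median number of CpG dinucleotides was 15 in the windows of repair genes and 6 over all windows. These matches describe the letters of the windows and carry no test.

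The genes beside Mgmt on the chromosome were not called. The 2 measured genes before it, Ptpre and Mki67, had log2 fold changes of −0.033 and −0.0075, and the 2 after it, Ebf3 and Gm10578, of 0.075 and −0.023, each with a limma adjusted p of at least 0.9636.

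The other 46 repair genes did not pass. With an adjusted p under 0.05, 0.692% of all genes were called and 0.296% were called as higher, against 1 of 47 repair genes, Mgmt. The members were chosen with earlier results of these data known, so these shares do not test the set. The call for 138 of 19938 genes was split into 59 higher and 79 lower, and the split moved with scaling, to 153 and 111 after a further quantile normalization and to 33 and 28 with arrays centred on their medians. An unadjusted p under 0.05 was found for 5 repair genes, Mgmt, Prkdc, Ddb1, Xpa and Msh6, where 9.46% of all genes, and 10.6% of the repair genes, had one. The groups did not overlap for 3 repair genes, Mgmt, Ddb1 and Msh6, or 6.38%, against 5.57% of all genes. Both shares lay near those over all genes. Without control 1 the count with an unadjusted p under 0.05 was 7, where 14.0% of all genes had one.

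Log2 fold changes of the 46 genes ran from −0.28 to 0.25, with a median of 0.033, and 30 were positive and 16 negative. The median over all genes was 0, and 49.2% of them were positive. With Mgmt the median was 0.035. The 95% intervals of 46 of the 47 genes lay within 1.5-fold in both directions, all except that of Mgmt, and those of 42 within 1.3-fold, against 97.2% and 86.5% of all genes. The lower bound for Mgmt, 0.66, lay above the highest upper bound of the other 46, 0.45 for Lig3. The precision was that of the array at large: the median half-width of the intervals was 0.18 for repair genes and 0.17 for all genes, and the median SD within groups was 0.12 and 0.11.

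**Figure D2:**
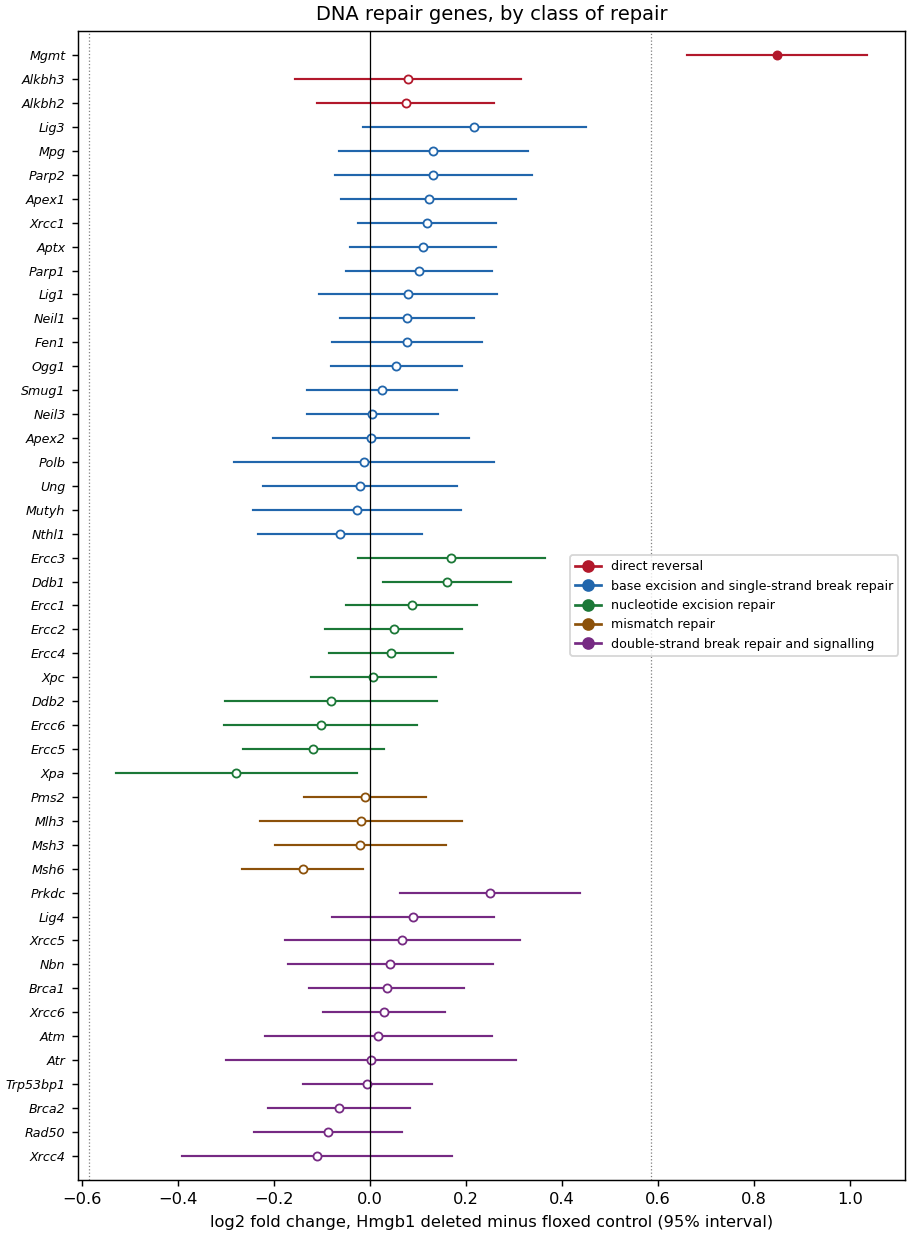
Log2 fold change (x axis, deleted minus control, with 95% intervals of the limma fit) of 47 repair genes, in 5 classes by colour; the filled circle passed an adjusted p of 0.05, and dotted lines mark 1.5-fold. Mgmt, at 0.85, stands to the right of the intervals of the other 46 genes, which all lie within 1.5-fold.

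Besides Mgmt, direct reversal was represented by Alkbh2 and Alkbh3, dioxygenases that strip methyl groups from alkylated DNA bases. Alkbh2 had log2 intensities of 7.10 to 7.45 on deleted and 7.06 to 7.28 on control arrays, with a log2 fold change of 0.075 (95% interval −0.11 to 0.26) and of 0.11 without control 1. Alkbh3 had 9.11 to 9.22 on deleted arrays and 9.17 to 9.27 on controls 2 to 4, with control 1 apart at 8.73. Its log2 fold change of 0.080 (95% interval −0.16 to 0.32) became −0.041 without control 1. Both groups of values overlapped for both genes.

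In base excision and single-strand break repair 0 of 18 genes passed (limma, smallest adjusted p = 0.592), and 0 had an unadjusted p under 0.05. Of these, 14 were nominally higher and 4 lower, with a median log2 fold change of 0.078. The glycosylases, which recognise and release damaged bases, lay near 0: Ogg1, which acts on oxidised guanine, had 0.055, Neil1 0.078, Neil3 0.0050, Ung, which removes uracil, −0.020, Smug1 0.025, Mutyh −0.028 and Nthl1 −0.063. Mpg, which removes alkylated purines that Mgmt does not act on, had 0.13 (95% interval −0.065 to 0.33). Its log2 intensity was 6.20, 6.51, 6.61 and 6.44 on deleted arrays 1 to 4 and 6.25 to 6.44 on controls, so deleted 1 lay below all controls.

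The enzymes that act after the glycosylase gave similar values. Apex1, the main endonuclease at sites without a base, had 0.12 (0.058 without control 1) and its relative Apex2 0.0025. Polb, the polymerase that fills the gap, had −0.013 (−0.125 without control 1), Fen1, a flap nuclease, 0.078, and Lig1, a ligase, 0.080. Among factors of single-strand breaks, Parp1 and Parp2, which sense them, had 0.10 and 0.13, the scaffold Xrcc1 had 0.12, and Aptx, which cleans abortive ligation ends, had 0.11. Lig3, the ligase partner of Xrcc1, had the largest fold change of the class, 0.22 (SE 0.11). Its log2 intensity was 7.76 to 8.00 on deleted arrays and 7.73 to 7.81 on controls 2 to 4, and 7.33 on control 1. Without control 1 its fold change was 0.11.

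Of 10 genes of nucleotide excision repair 0 passed, with 6 nominally higher, 4 lower and a median of 0.026. Ddb1, the damage-binding adaptor of a ubiquitin ligase, had log2 intensities of 10.37, 10.28, 10.47 and 10.33 on deleted arrays 1 to 4 and of 10.16, 10.21, 10.22 and 10.22 on controls 1 to 4. The groups did not overlap, but the difference was small, 0.16 (SE 0.061, limma adjusted p = 0.383). Its partner Ddb2, which recognises ultraviolet damage, had −0.080, with 5.94 to 6.21 on deleted and 5.85 to 6.31 on control arrays, and −0.18 without control 1.

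Xpa, the factor that verifies the damage, had the lowest fold change of all 47 genes. Its log2 intensity was 8.21, 8.51, 7.85 and 8.26 on deleted arrays 1 to 4 and 8.51, 8.48, 8.46 and 8.49 on controls 1 to 4. The controls lay within 0.05 of each other, while the deleted arrays spread widely, with deleted 2 level with the highest control and deleted 3 lowest. The difference was −0.28 (SE 0.11, limma adjusted p = 0.449), and −0.16 without deleted 3. Without deleted 2 it was −0.38 (limma adjusted p = 0.199), and the groups did not overlap, as for 8.04% of all genes there.

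The remaining genes of the route did not pass either. Xpc, which finds lesions across the genome, had 0.0075. The helicases of the TFIIH complex, Ercc2 and Ercc3, had 0.050 and 0.17, the latter 0.083 without control 1. The nuclease pair Ercc1 and Ercc4 had 0.088 and 0.045, the nuclease Ercc5 −0.12 and Ercc6, which couples repair to transcription, −0.10. Without control 1 these last 2 had −0.16 and −0.18.

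All 4 mismatch repair genes were nominally lower, but the sign depended on scaling. With arrays centred on their medians Mlh3 and Pms2 turned positive and Msh3 was at 0, which left Msh6 at −0.12. Pms2 also turned positive after a further quantile normalization. The median over all genes moved up as well, from 0 to 0.020 with arrays centred and to 0.013 after that normalization. These changes of sign thus came with a shift of the whole scale. None of the 4 passed (limma; 1 had an unadjusted p under 0.05), and the median was −0.019. Msh6, a subunit of the complex that detects mismatched bases, had log2 intensities of 5.39, 5.46, 5.32 and 5.38 on deleted arrays 1 to 4 and of 5.48, 5.57, 5.54 and 5.52 on controls 1 to 4. The groups did not overlap, although only 0.02 separated deleted 2 from control 1. The difference was −0.14 (SE 0.057, limma adjusted p = 0.449), on a dim probe set, with only 25.9% of genes dimmer. Msh3, which detects loops, had −0.020, and the MutL-type genes Mlh3 and Pms2 had −0.018 and −0.010.

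Among 12 genes of break repair and signalling 0 passed, with 8 nominally higher, 4 lower and a median of 0.024. Prkdc, the catalytic subunit of the kinase that holds broken ends for joining, had log2 intensities of 6.47, 6.61, 6.43 and 6.72 on deleted arrays 1 to 4 and of 6.17, 6.24, 6.39 and 6.43 on controls 1 to 4. Deleted 3 was level with control 4, and the other 3 deleted arrays lay above all controls. The difference was 0.25 (SE 0.085, limma adjusted p = 0.306), the largest positive difference after Mgmt, and 0.20 without control 1.

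The other end-joining genes did not share that size. The Ku subunits Xrcc5 and Xrcc6 had 0.068 and 0.030, and the ligase Lig4 and its partner Xrcc4 0.090 and −0.11, the latter −0.21 without control 1. The recombination genes Brca1 and Brca2 had 0.035 and −0.065, both on dim probe sets. Rad50 and Nbn, which form a break-sensing complex, had −0.088 and 0.043, with a second, dimmer probe set of Nbn at 0.10. The signalling kinases Atm and Atr had 0.018 and 0.0025 (Atr −0.13 without control 1), and Trp53bp1, which steers the choice of repair route, −0.0050.

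**Figure D3:**
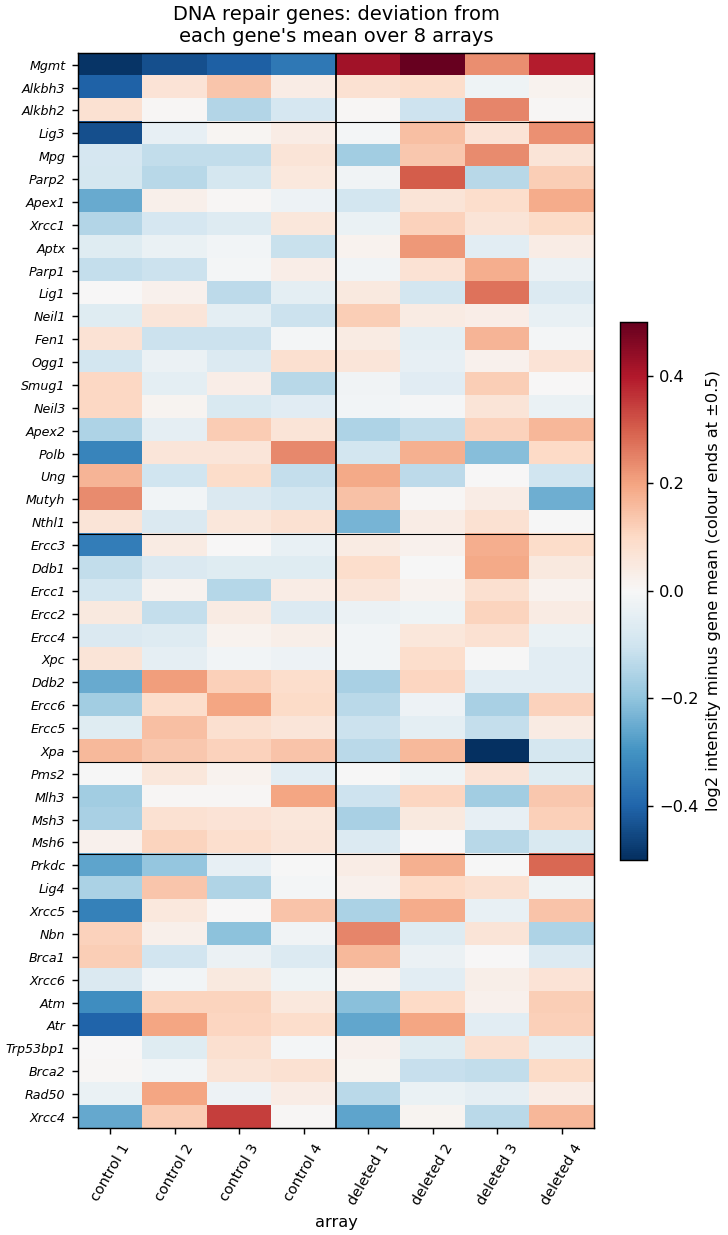
Log2 intensity of each of 47 repair genes (rows, by class) minus that gene's mean over the 8 arrays (columns; red higher, blue lower, colour ending at 0.5 in either direction). Mgmt divides the groups, while control 1 is the lowest array for 19 genes across the classes.

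Much of the variation among the repair genes lay between arrays of the same group. Control 1 was the lowest of the 8 arrays by itself for 19 of 47 repair genes (40.4%), and for 21.5% of all genes. Deleted 4 was the lowest by itself for 3 repair genes and for 21.9% of all genes. Over the 46 genes other than Mgmt, the mean deviation from each gene's own mean was −0.090 on control 1, 0.0081 to 0.016 on the other controls, and −0.031, 0.037, 0.017 and 0.034 on deleted arrays 1 to 4. Control 1 also stood apart over all genes: the first principal component, with 37.6% of the variance, placed it at 26.6 and the other arrays between −11.7 and 11.4. It was not low over all genes, where its median deviation was 0.015. For 8 repair genes, Apex1, Apex2, Ddb2, Msh3, Xrcc4, Xrcc5, Atm and Atr, both control 1 and deleted 1 lay below the other 6 arrays, a pattern found in 17.0% of repair genes and 10.8% of all genes. Atr, for example, had 6.24 on control 1 and 6.38 on deleted 1, and 6.59 to 6.84 on the other 6 arrays. Without control 1, 28 repair genes were nominally higher and 19 lower, with 5 higher and 7 lower in break repair. Mgmt kept a log2 fold change of 0.83 there (limma adjusted p = 0.00193).

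Other genes of the same routes, damage response genes and proliferation genes were compared in the same fit. Of 78 other repair genes 0 passed (limma; 7 had an unadjusted p under 0.05), with 47 nominally higher, 31 lower and a median of 0.029. Those with the smallest p were Rev3l, the catalytic subunit of a polymerase that copies past lesions, at −0.23, Tdp1, which frees trapped topoisomerase, at 0.29, and Rpa2, a subunit that coats single strands, at 0.18 (limma adjusted p = 0.267 to 0.359). Of 26 p53 target and damage response genes 0 passed and 1 had an unadjusted p under 0.05. That gene, Gadd45g, a stress-induced gene, had 7.82, 9.24, 7.94 and 8.55 on deleted arrays 1 to 4 and 9.70, 10.10, 8.56 and 9.52 on controls 1 to 4. The groups overlapped. Their difference of −1.08 (SE 0.35, limma adjusted p = 0.268) passed with the replicate number as a block (adjusted p = 0.0240). The relatives of Gadd45g differed in sign, with Gadd45b at −0.32 (limma adjusted p = 0.681) and Gadd45a at 0.083. Over this list 11 genes were nominally higher and 15 lower, with a median of −0.015. Of 25 proliferation genes 0 passed and 2 had an unadjusted p under 0.05, with a median of 0.0025. Mcm5, a subunit of the replicative helicase, had 0.21, and Bub1 and Ccnb2, of mitosis, had −0.15 and −0.18.

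Hmgb1, which checks the labels, had a log2 intensity of 4.60 ± 0.31 (SD, n = 4) on deleted and 5.50 ± 0.19 (SD, n = 4) on control arrays, with all deleted arrays lower, on a dim probe set. Markers of other liver cell types were set beside these values. All 14 sinusoidal endothelial markers were nominally lower and 1 of them, Clec4g, fell past the threshold, by 0.61. Of the 14, 7 had an unadjusted p under 0.05 (limma), against 9.46% of all genes. The mean level of the list was 8.82 to 8.97 on deleted and 9.03 to 9.20 on control arrays, with no overlap. Lyve1 and Fcgr2b followed by p, at −0.445 and −0.195. The 7 measured erythroid markers had mean levels of 7.15 to 7.27 and 7.32 to 7.49, which did not overlap either, with 5 of 7 nominally lower and 0 called (limma; 3 had an unadjusted p under 0.05). Those 3, Car1, Alas2 and Car2, had −0.44, −0.545 and −0.415. Hepatocyte markers, 12 of 13 nominally lower and 0 called (2 had an unadjusted p under 0.05), had overlapping levels of 12.58 to 13.00 and 12.96 to 13.01. Deleted 4 was the lowest array there, and its Alb level of 13.26 lay under the 13.93 to 14.03 of the remaining arrays. The brightest probe set on deleted 4, at 13.58, also lay under those of the remaining arrays, 14.23 to 14.46. Without deleted 4 the fold change of Mgmt was 0.86 on the log2 scale (limma adjusted p = 0.0127). Levels on deleted and control arrays overlapped for stellate cell (8.07 to 8.18 and 8.10 to 8.18), macrophage (8.35 to 8.46 and 8.35 to 8.48), lymphocyte (5.40 to 5.58 and 5.46 to 5.59), neutrophil (5.30 to 5.44 and 5.31 to 5.50) and cholangiocyte markers (5.62 to 5.83 and 5.79 to 5.85), with 0 called in each (limma; 3, 2, 0, 0 and 1 had an unadjusted p under 0.05). The 1 cholangiocyte gene was Sox9, at −0.35, while 4 of the 7 measured cholangiocyte markers were nominally higher and their median was 0.0025. The part of cell composition in the Mgmt result was not tested, and in whole tissue fewer cells of a type and less RNA per cell cannot be told apart.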

How the data were processed

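The deposited values are log2 intensities that the authors obtained with RMA (background correction, normalization and summary by probe set), per the submitters' processing notes; no version of it is stated. Of 35556 probe sets, 21789 carried exactly 1 gene symbol in the platform annotation. Each gene was represented by the brightest of these over 8 arrays, with no filter on dim genes. The groups were compared over all genes with limma 3.58.1 in R 4.3.3 (lmFit, eBayes, 2-sided), with Benjamini-Hochberg adjustment over all genes and a threshold of 0.05. "Nominally" higher or lower gives only the sign of a fold change. Array values were given for Mgmt and for members with an unadjusted p under 0.05, and from the lists of other repair, damage response and proliferation genes, which had no gene past the threshold, up to 3 with the smallest p were named. Marker genes were named where they passed, or for the endothelial, erythroid and cholangiocyte lists by smallest p. Alb, Reln, Des and Gadd45a were named outside these rules. Array values of other members were added after they had been seen. The members and lists were chosen with earlier results of these data known. Same-numbered arrays of the groups had deviations correlated at 0.45, 0.065, −0.081 and 0.42 for numbers 1 to 4. The numbers were not taken as pairs, and the number as a block was fitted only as an alternative. Whether same-numbered arrays shared a factor was not tested. Probe sets differ in brightness apart from RNA amount, so levels of different genes were not ranked. Precision is limited by the number of arrays. Alternatives covered filtering, probe set choice, scaling, variance model, array weights, a replicate block and each array left out. The scripts were tested on simulated data. Promoter windows came from RefSeq (GRCm38.p6). Python 3.11.15 made the tables and figures.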

Additional observations from a re-analysis of the deposited data

Results flagged for a closer look

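For each repair gene, an array was singled out where its gap to the nearest array of its group, over that group's range, passed Dixon's 95% critical value. Among 94 groups of 4 values of repair genes 5 were found, and chance gives about 1 in 20. Of these, 4 fell on control 1, which was low each time. Lig3 had 7.33 there against 7.73 to 7.81 on the other controls. Ddb1 had 10.16 against 10.21 to 10.22, Msh3 6.70 against 6.92 to 6.94 and Atm 6.01 against 6.37 to 6.43. The fifth was Nthl1 on control 2, at 6.52 against 6.65 to 6.67. No value of Mgmt was singled out.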

How the results depend on the processing

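Mgmt passed the threshold in all 17 alternatives, with log2 fold changes of 0.77 to 0.91 and limma adjusted p of 0.000251 to 0.0137, and 0 of the other 46 repair genes passed in any (lowest adjusted p = 0.148). The median of the repair genes ran from 0.026 to 0.055. The value of 0.055 came after quantile normalization again and with arrays centred. The median over all genes was 0.013 and 0.020 in these settings, against 0 without them. Over all genes the 138 calls became 57 with all probe sets tested, 264 after quantile normalization again, 61 with arrays centred on their medians, 526 with array weights, 325 with the replicate number as a block (replicate block), and 37 (without deleted 4) to 321 (without control 1) with an array left out; the cause was not tested. Of 8 arrays, 4 correlated best in their deviations with the array of their own number. Repair genes with groups that did not overlap numbered 2 after quantile normalization again (Mgmt and Lig3), against 8.5% of all genes. With arrays centred they numbered 2 (Mgmt and Ddb1), against 5.09%. With an array left out they numbered 3 to 6, with 6 without deleted 1 and 5 without deleted 3, control 2 or control 4. Fewer arrays there also raised the share of all genes, to 10.5%, 7.96%, 7.47% and 7.0%. The share was highest without control 1, at 13.3%. It was 8.04% without deleted 2, 7.62% without deleted 4 and 7.5% without control 3. Repair genes with an unadjusted p under 0.05 numbered 3 without deleted 3, without control 3 and with arrays centred. Of all genes 7.78%, 7.94% and 8.54% had one there. With array weights they numbered 8, where 15.6% of all genes had one. In the other lists 1 gene passed with array weights and 1 without control 1, Smc5 both times (named after its values were seen), and 1, Gadd45g, with the block (0 to 1 with an array left out).

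Signs changed for 18 genes, all with a fold change within 0.08 of 0. After quantile normalization again Polb had 0.0056, Pms2 0.0091 and Trp53bp1 0.0050. With arrays centred Polb had 0.0075, Mlh3 0.0025, Pms2 0.010 and Trp53bp1 0.015. With array weights Alkbh3 had −0.0094, Ung 0.0072, Mutyh 0.038, Apex2 −0.052, Atm −0.033 and Atr −0.057. With an array left out Nthl1 ran from −0.098 to 0.0050, Polb from −0.125 to 0.065, Msh3 from −0.078 to 0.031, Mlh3 from −0.078 to 0.045, Brca1 from −0.013 to 0.082, Nbn from −0.032 to 0.10, Ung from −0.087 to 0.033, Xpc from −0.020 to 0.031, Atm from −0.083 to 0.090, Atr from −0.13 to 0.090, Trp53bp1 from −0.033 to 0.021, Neil3 from −0.019 to 0.041, Smug1 from −0.017 to 0.063, Apex2 from −0.053 to 0.054, Mutyh from −0.081 to 0.049, Pms2 from −0.034 to 0.0092, Alkbh3 from −0.041 to 0.14 and Xrcc5 from −0.033 to 0.13. Genes on dim probe sets, such as Neil3, Brca1 and Msh6, can differ by more than these intensities show.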
